A study of Mus musculus with 4 samples.

Results

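SLAM receptors, the SAP-type adaptors that bind their tails and the receptors for nectins and nectin-like proteins were described in liver group 1 innate lymphoid cells (ILC1s). The members are 9 genes chosen by symbol, namely Slamf6, Slamf7, Sh2d1a, Sh2d1b1, Crtam, Cd226, Cd96, Tigit and Cd160, out of 18804 genes in the deposited table. RNA-seq values were given as FPKM, a level corrected for gene length and for the size of the library, in 2 Cd200r knockout libraries (replicates 1 and 2) and 2 WT libraries (replicates 1 and 3). All 4 were labelled as ILC1s from the liver of mice at homeostasis, aged 5 to 8 weeks, so the groups differ in the labels only by genotype. The labels give neither the strain, the exons removed by the Cd200r allele, the sorting gate nor whether a library is 1 mouse or a pool, and p-values therefore measure only how these libraries vary, part of which may be technical.

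SLAM receptors are immunoglobulin-type receptors of haematopoietic cells that mostly bind their own kind on a neighbouring cell, and in NK cells and ILC1s they tune killing through tyrosine motifs in their tails. Those motifs bind small SH2 adaptors: SAP (Sh2d1a) brings the kinase FYN, and EAT-2 (Sh2d1b1) couples to phospholipase C gamma, while without an adaptor the motifs can recruit inhibitory phosphatases. Among receptors for nectin-type ligands, CD226 activates and TIGIT inhibits on binding CD155 (Pvr), CD96 binds the same ligand, and CRTAM binds another, the nectin-like protein CADM1; CD160 is not of this group and binds the TNF receptor family protein HVEM (Tnfrsf14).

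Promoter sequences in the RefSeq table of GRCm38.p6 were matched for 6 of the 9 genes, and not for Sh2d1a, Crtam or Cd226. The 250 bases before the listed start site are shown for Slamf6, Slamf7 and Sh2d1b1, because these lie on the same chromosome and their libraries separated by genotype in different directions. Slamf6 is at chr1:171917212-171917461 on the plus strand, Slamf7 at chr1:171649000-171649249 on the minus strand and Sh2d1b1 at chr1:170277068-170277317 on the plus strand. The start listed for Slamf7 lies inside the gene as its outer coordinates (171632403 to 171653037) place it, so other transcripts begin farther upstream. Each is written 5′ to 3′ on the strand of the gene, and capitals mark matches on either strand to a RUNX (TGTGGT), T-box (TCACAC), ETS (AGGAAG) or AP-1 (TGANTCA) motif.
Slamf6: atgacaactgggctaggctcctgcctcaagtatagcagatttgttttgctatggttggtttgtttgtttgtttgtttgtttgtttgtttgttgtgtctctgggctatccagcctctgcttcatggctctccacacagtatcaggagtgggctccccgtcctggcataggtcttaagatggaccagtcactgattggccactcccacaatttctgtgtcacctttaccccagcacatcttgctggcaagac
Slamf7: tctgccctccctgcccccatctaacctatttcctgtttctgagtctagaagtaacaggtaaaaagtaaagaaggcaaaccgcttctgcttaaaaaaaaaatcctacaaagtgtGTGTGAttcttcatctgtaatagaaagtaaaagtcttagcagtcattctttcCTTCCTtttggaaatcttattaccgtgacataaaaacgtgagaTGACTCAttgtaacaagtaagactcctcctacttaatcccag
Sh2d1b1: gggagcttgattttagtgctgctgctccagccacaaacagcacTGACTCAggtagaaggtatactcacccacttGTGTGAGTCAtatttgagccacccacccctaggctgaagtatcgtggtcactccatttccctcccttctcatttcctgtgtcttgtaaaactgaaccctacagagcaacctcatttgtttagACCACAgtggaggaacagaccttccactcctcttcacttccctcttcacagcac
The Slamf7 window held 1 T-box, 1 ETS and 1 AP-1 match, which began 137, 85 and 42 bases before the start site. The Sh2d1b1 window held 1 RUNX match 54 bases before it, 1 T-box match at 176 bases, and 2 AP-1 matches at 207 and 173 bases, of which the nearer shares bases with the T-box match. The Slamf6 window held none of the 4 motifs. Among 32851 promoter windows of this length, 14.0% held the RUNX letters, 12.3% the T-box letters, 29.5% the ETS letters and 6.7% the AP-1 letters, so a match describes the sequence and does not show a bound site.

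All 9 genes passed the filter on low values (a 4-library mean of 1 FPKM or more) and spanned a 216.6-fold range of mean level. Cd160 was the most abundant, with a mean of 586.3 FPKM over the 4 libraries and place 114 among all 18804 genes, and Slamf6 the least, with 2.71 FPKM. In WT the order of mean FPKM was Cd160, Cd96, Cd226, Slamf7, Tigit, Sh2d1b1, Sh2d1a, Crtam and Slamf6. The libraries overlapped between neighbours in this order for Cd226 with Slamf7 and for Tigit with Sh2d1b1 only. The order of the means was the same in knockout, where Sh2d1b1 overlapped with Sh2d1a and no other neighbours overlapped. The inferred depth was 39001211 to 41170370 counted reads per library, at which the lowest of these values, Slamf6 in WT replicate 3, rests on about 48.6 reads per kilobase.

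**Figure D1:**
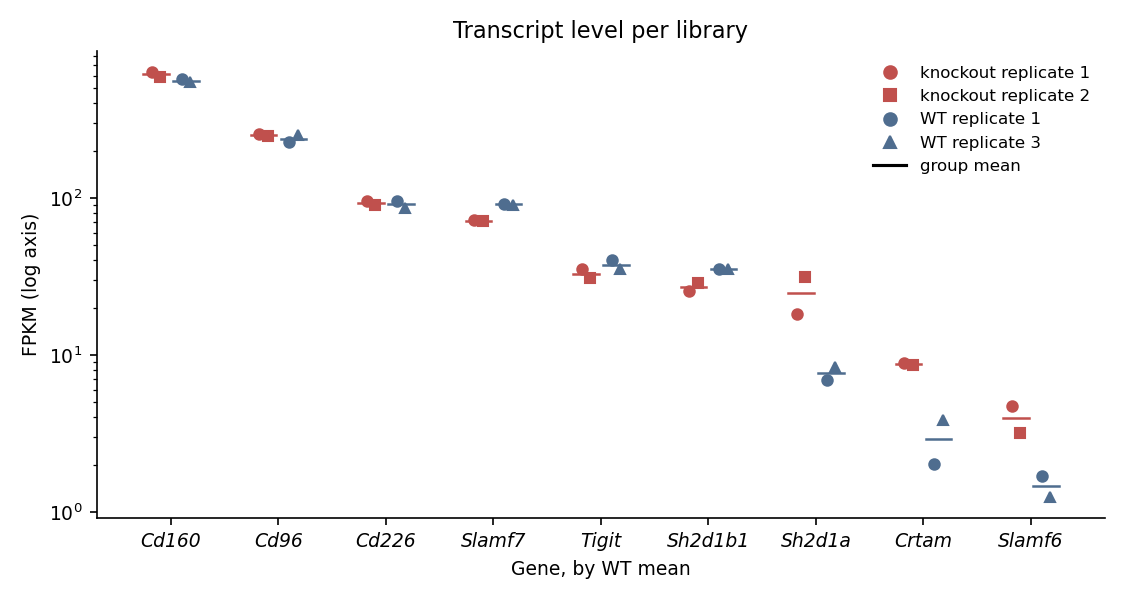
FPKM (log axis) of the 9 genes in each library, ordered by WT mean, with symbols for libraries and short lines for group means. Sh2d1a, Crtam and Slamf6 stand higher in both knockout libraries, whereas Cd226 and Cd96 overlap between the genotypes.

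The targeted gene was still transcribed. Cd200r1 measured 110.7 and 103.7 FPKM in knockout replicates 1 and 2 and 161.5 and 173.3 FPKM in WT replicates 1 and 3, a fall of the transcript but not its absence (log2 fold change −0.64, SE 0.09, limma adjusted p = 0.0045). Its call ended when all genes above 0 were tested (limma adjusted p = 0.302) and without limma's mean-variance trend (adjusted p = 0.108). Among ILC1 markers, Ncr1 (NKp46), Cxcr6, Klrb1c (NK1.1) and Il2rb had the highest levels. Ncr1 measured 1486 and 1505 FPKM in knockout and 1653 and 1748 FPKM in WT. Summed FPKM of the 9 measured ILC1 markers was 4414 and 4411 in knockout and 4717 and 4933 in WT. Only Cd200r1 passed the test. Without overlap, 4 were lower (Itga1, Cd200r1, Ncr1 and Klrb1c) and 1 was higher (Il7r). Over all tested genes, 21.7% were lower and 24.3% higher without overlap. Markers of some other cells moved with genotype too. Summed FPKM of 10 conventional NK markers was 276.4 and 590.2 in knockout against 93.7 and 89.3 in WT, with 9 of them past the test and higher, led by Ly6c2, Klra8, Cma1 and Klf2. Of 12 macrophage markers 8 passed and were higher, with sums of 653.1 and 966.4 against 247.4 and 226.2 FPKM. Clec4f, Vsig4 and Cd5l did not pass and overlapped between the groups, with Cd5l at 2.02 and 4.2 against 2.38 and 3.92 FPKM. Marco, below the filter, was lower in knockout without overlap (0.328 and 0.158 against 0.554 and 0.36 FPKM). All 7 erythroid markers were lower, with sums of 12483 and 14026 against 24710 and 26810 FPKM. Summed markers were 65.4 to 78.7 FPKM for B cells and 365.3 to 470.7 FPKM for hepatocytes. Dendritic cell sums were 58.7 and 55.5 FPKM in knockout and 94.6 and 82.0 FPKM in WT, mostly from Itgax. Neutrophil sums were 21.1 and 33.6 FPKM in knockout and 18.7 and 7.94 FPKM in WT, with Mpo at 0 in every library. These lists included 1 gene past the test, Itgax, which fell. None of 8 tested T and NKT cell markers passed. Their summed FPKM over 9 measured genes was 2135 and 2170 in knockout and 2380 and 2355 in WT, nearly all of it Cd3g. Of the 9, 4 were higher and 3 lower in knockout without overlap, where 24.3% and 21.7% of all tested genes were. Higher were Cd3d (102.0 and 158.6 FPKM against 84.8 and 76.9) and Cd3e (18.3 and 20.3 against 13.3 and 10.1). So were Cd5 (2.64 and 3.35 against 1.78 and 1.49) and Cd28 (7.35 and 10.7 against 5.38 and 4.63). Lower were Cd3g (1983 and 1950 against 2249 and 2238) and Cd8b1 (0.771 and 1.78 against 2.61 and 1.89). Zbtb16, below the filter, was also lower (0.289 and 0.237 against 0.315 and 0.602). Cd4 (1.82 to 3.49 FPKM) and Cd8b1 were low in every library. In these bulk libraries, fewer cells of a type and less RNA per cell cannot be told apart.

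Of the 9 genes, 2 rose in knockout, 0 fell and 7 did not pass the test (limma on log2(FPKM + 1), adjusted p of 0.05 over 9476 genes). That is 22.2% of them, where 3.33% of all tested genes passed, 2.4% higher and 0.939% lower in knockout. The genes were chosen with earlier results of these data known, so this share is a description. The median log2 fold change of the 9 was 0.07, against 0.0033 over all tested genes. The groups did not overlap for 7 of the 9, 4 higher and 3 lower in knockout, where 46% of all tested genes did not overlap, 24.3% higher and 21.7% lower.

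Sh2d1a (chromosome X, 42502565 to 42522097), which encodes SAP, rose. It measured 18.2 and 31.2 FPKM in knockout replicates 1 and 2 and 6.9 and 8.37 FPKM in WT replicates 1 and 3. Both knockout libraries were above both WT libraries, and knockout replicate 2 was 1.71 times replicate 1. The means were 24.7 ± 9.16 and 7.63 ± 1.04 FPKM (SD, n = 2 each), a 3.24-fold difference (log2 fold change 1.53, SE 0.23, limma adjusted p = 0.00471). The rise was smaller without knockout replicate 2 (1.16, adjusted p = 0.00478) and larger without knockout replicate 1 (1.90, adjusted p = 4.13e-05). The call ended when all genes above 0 were tested (limma adjusted p = 0.329) and without limma's mean-variance trend (adjusted p = 0.0715). Knockout replicate 2 was also the library with the highest sums of conventional NK markers (590.2 against 276.4 FPKM in knockout replicate 1) and of macrophage markers (966.4 against 653.1), and with the highest Cd3d (158.6 against 102.0 FPKM). Other T and NKT cell markers went either way between the knockout replicates. Cd3e was 18.3 and 20.3 FPKM and Cd4 3.49 and 2.44 FPKM in knockout replicates 1 and 2. The T and NKT sum was 2135 and 2170 FPKM there, against 2380 and 2355 FPKM in WT. The part of RNA from these cell types in the rise of Sh2d1a was not tested. In GENCODE M21, 1465 exonic bases of Sh2d1a lie opposite exons of Tenm1, a gene not analysed here, and a library kit that does not mark strand cannot tell their reads apart.

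Sh2d1b1 (chromosome 1, 170277318 to 170286769) encodes EAT-2, the adaptor of SLAMF7 signalling in NK cells. Its level was 25.6 and 28.7 FPKM in knockout and 35.3 and 35.0 FPKM in WT. The groups did not overlap, and the direction was opposite to that of Sh2d1a, but the test was not passed (1.29-fold lower, log2 fold change −0.36, 95% interval −0.63 to −0.09, limma adjusted p = 0.166). The neighbouring gene Sh2d1b2 is a close paralog, and how reads shared by the pair were counted is not known here.

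The 2 adaptors were also set side by side within each library, where scaling between libraries cancels. The ratio of Sh2d1a to Sh2d1b1 FPKM was 0.713 and 1.09 in knockout and 0.195 and 0.239 in WT. In WT, SAP transcript was the minor adaptor, and in knockout replicate 2 it exceeded EAT-2 transcript. With 2 libraries against 2, an exact permutation test cannot give a p below 0.333, so the ratio is given without a test.

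**Figure D2:**
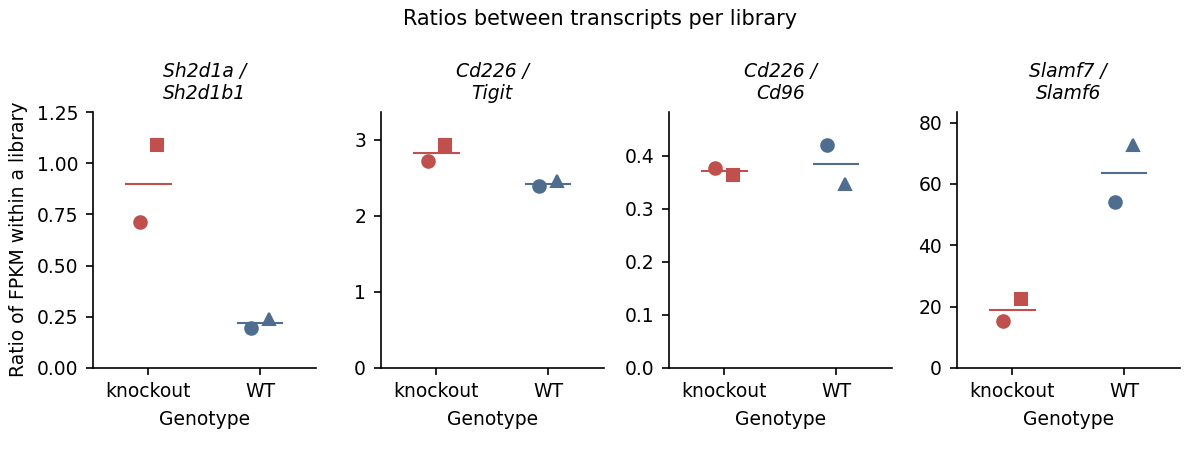
Ratios of FPKM between gene pairs within each library, on linear axes from 0, with symbols for libraries (circle and square for knockout replicates 1 and 2, circle and triangle for WT replicates 1 and 3) and lines for group means. The ratio of Sh2d1a to Sh2d1b1 is higher and that of Slamf7 to Slamf6 lower in both knockout libraries, while Cd226 to Cd96 overlaps.

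Slamf6, also called Ly108, is a SLAM receptor that signals through both adaptors. It measured 4.7 and 3.19 FPKM in knockout and 1.69 and 1.25 FPKM in WT. Every knockout value was above every WT value, a 2.69-fold difference of means that missed the threshold (log2 fold change 0.99, 95% interval 0.47 to 1.52, limma adjusted p = 0.0505). It passed when knockout replicate 2 was left out (1.21, adjusted p = 0.0316) and had an adjusted p of 0.136 without knockout replicate 1, 0.0531 without WT replicate 1 and 0.177 without WT replicate 3. Unlike Sh2d1a, it was higher in knockout replicate 1 than in replicate 2.

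Slamf7, also called CRACC, is an activating receptor of NK cells when EAT-2 is present. Its values were 72.1 and 71.2 FPKM in knockout and 91.5 and 90.6 FPKM in WT. The replicates lay within 1.01 times of each other in both groups, and the knockout libraries were 1.27-fold lower, but the test was not passed (log2 fold change −0.34, 95% interval −0.55 to −0.13, limma adjusted p = 0.0911). With any library left out, the log2 fold change stayed between −0.35 and −0.33. In GENCODE M21, 423 exonic bases of Slamf7 lie opposite exons of the antisense gene Gm37787, which was not analysed here. Reads of the pair cannot be told apart by a kit that does not mark strand. The ratio of Slamf7 to Slamf6 FPKM was 15.3 and 22.3 in knockout and 54.1 and 72.7 in WT.

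Slamf6 and Slamf7 belong to a cluster of 7 SLAM genes on chromosome 1, from Cd244a to Slamf6 (171558718 to 171948958, 390.2 kb). Of their 5 neighbours there, 4 were tested and did not pass, and Slamf1 was below the filter (0.264 and 1.27 FPKM in knockout, 0.0354 and 0.25 FPKM in WT). Cd244a (2B4, the receptor for CD48) had a log2 fold change of 0.00 (95% interval −0.18 to 0.19), Ly9 of 0.04 (−0.17 to 0.25), Cd48 of 0.02 (−0.16 to 0.21) and Cd84 of 0.18 (−0.12 to 0.49). Cd48, Cd244a and Ly9 were abundant, at 468.4 to 513.3, 241.3 to 257.5 and 145.6 to 163.9 FPKM over the 4 libraries. Slamf7 lies between Ly9 and Cd48, whose intervals hold 0. The difference between Slamf7 and these neighbours was not tested.

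**Figure D3:**
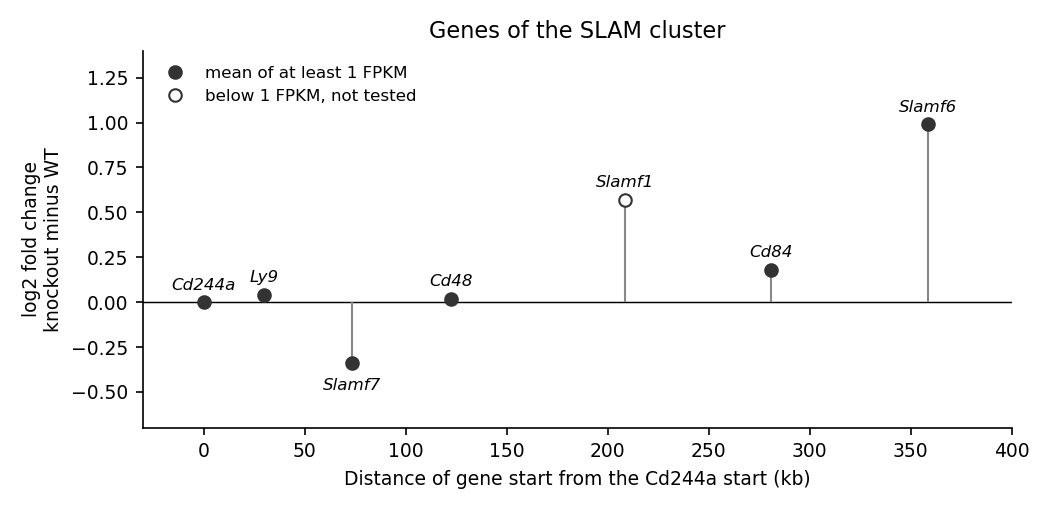
Log2 fold change (knockout minus WT) of the 7 genes of the SLAM cluster against the distance of each gene start from that of Cd244a in kilobases; open symbols mark genes below 1 FPKM. Slamf6 at one end has the highest value, Slamf7 lies below 0, and Cd244a, Ly9 and Cd48 lie near 0.

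Crtam (chromosome 9, 40972798 to 41004628), a receptor of activated lymphocytes for a nectin-like protein, rose. Its values were 8.86 and 8.62 FPKM in knockout and 2.01 and 3.82 FPKM in WT. The knockout libraries were within 1.03 times of each other, the WT libraries were 1.9 times apart, and the groups did not overlap. The means were 8.74 ± 0.171 and 2.91 ± 1.28 FPKM (SD, n = 2 each), a 3.0-fold difference (log2 fold change 1.36, SE 0.24, limma adjusted p = 0.0117). Of the 4 fits that left out a library, all passed, and the value was smallest without WT replicate 1 (1.02, adjusted p = 0.0399). As for Sh2d1a, the call ended when all genes above 0 were tested (limma adjusted p = 0.342) and without the mean-variance trend (adjusted p = 0.0771). Crtam was nearly equal in both knockout libraries, in which the conventional NK sum was 276.4 and 590.2 FPKM and the macrophage sum 653.1 and 966.4 FPKM. The macrophage sum was mostly Lyz2 (526.7 and 771.1 FPKM). Single markers differed in how far apart these libraries were as a ratio, from Aif1 (12.6 and 14.0 FPKM) to Clec4f (3.72 and 12.4 FPKM). C1qc lay between them (23.1 and 40.5 FPKM). Marco, below the filter, was higher in knockout replicate 1 (0.328 and 0.158 FPKM). The part of conventional NK or macrophage RNA in the rise of Crtam was not tested.

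Cd226 (DNAM-1), Tigit and Cd96, the CD155 receptors, did not pass. Cd226 measured 95.6 and 89.9 FPKM in knockout and 95.4 and 86.7 FPKM in WT. Its groups overlapped, and the interval of its log2 fold change ran from −0.19 to 0.25. Cd96 measured 254.0 and 246.7 FPKM in knockout and 227.2 and 249.8 FPKM in WT, again with overlap (log2 fold change 0.07, 95% interval −0.12 to 0.26). Tigit measured 35.2 and 30.7 FPKM in knockout and 40.0 and 35.2 FPKM in WT, where the upper knockout library lay just under the lower WT library (−0.19, 95% interval −0.47 to 0.09). These intervals bound changes in either direction and do not show that the levels were equal.

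The ratio of Cd226 to Tigit, an activating and an inhibitory receptor for the same ligand, was 2.72 and 2.93 in knockout and 2.39 and 2.46 in WT. Cd226 to Cd96 gave 0.376 and 0.364 in knockout and 0.42 and 0.347 in WT, with overlap. Tigit and Cd96 lie on chromosome 16 on either side of Cd200r1, 1100.6 kb and 1240.7 kb from it. Neither passed the test.

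Cd160, a receptor for HVEM on NK cells and ILC1s, measured 633.9 and 592.7 FPKM in knockout and 575.5 and 543.4 FPKM in WT. The groups did not overlap, but the difference was 1.1-fold and did not pass (log2 fold change 0.13, 95% interval −0.05 to 0.31, limma adjusted p = 0.481). Its shared exonic bases with Pdzk1 on the opposite strand number 68 in GENCODE M21, and Pdzk1 measured 4.52 to 6.16 FPKM.

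**Figure D4:**
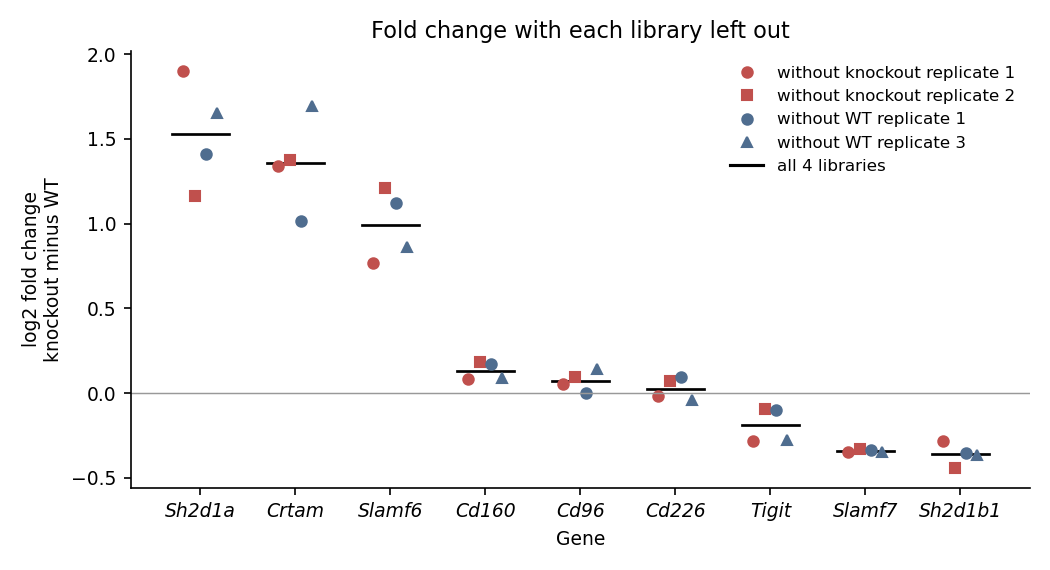
Log2 fold change of each of the 9 genes with all 4 libraries (black line) and with each library left out in turn (symbols). Sh2d1a, Crtam and Slamf6 stay above 0 and Tigit, Slamf7 and Sh2d1b1 below 0 in every case, whereas Cd226 changes sign.

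Other genes of these pathways came from lists of receptors, adaptors, signalling proteins and ligands. The deposited values hold 38 of them, and 28 were tested, of which 1 rose, 2 fell and 25 did not pass, with a median log2 fold change of −0.05. Over all tested genes 2.4% passed and were higher and 0.939% passed and were lower. Pvrig, an inhibitory receptor for nectin-2, fell: it measured 65.6 and 68.4 FPKM in knockout and 93.4 and 88.1 FPKM in WT, 1.35-fold lower (log2 fold change −0.43, SE 0.10, limma adjusted p = 0.0405). Its call ended without knockout replicate 1 (log2 fold change −0.40), WT replicate 1 (−0.39) or WT replicate 3 (−0.47). It also ended when all genes above 0 were tested (limma adjusted p = 0.307) and without the mean-variance trend (adjusted p = 0.234). Lta, which encodes lymphotoxin alpha, another ligand of HVEM, rose from 3.05 and 2.57 FPKM in WT to 6.9 and 7.42 FPKM in knockout (log2 fold change 1.10, SE 0.20, limma adjusted p = 0.0125).

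Signalling genes downstream of the receptors mostly did not pass. Of 18 tested, 1 fell, 0 rose and 13 had a negative log2 fold change, with a median of −0.09. A count of 1 in 18 is near the background, since 3.33% of all tested genes passed, and 50.5% of them had a positive log2 fold change. Plcg2, which encodes phospholipase C gamma 2, fell. It measured 45.7 and 44.2 FPKM in knockout and 65.8 and 67.7 FPKM in WT (1.49-fold lower, log2 fold change −0.56, SE 0.10, limma adjusted p = 0.014). The call ended without WT replicate 1 (log2 fold change −0.58) or WT replicate 3 (−0.54). It also ended when all genes above 0 were tested (limma adjusted p = 0.302) and without the mean-variance trend (adjusted p = 0.131). Plcg1, which encodes phospholipase C gamma 1, measured 2.11 and 2.38 FPKM in knockout and 2.95 and 2.9 FPKM in WT and did not pass (−0.28, 95% interval −0.74 to 0.19). Fyn, the kinase that SAP recruits, measured 38.6 and 45.7 FPKM in knockout and 36.9 and 39.0 FPKM in WT and did not pass (0.14, 95% interval −0.13 to 0.41).

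The signalling genes with the next smallest p did not pass either. They were Sh3bp2, an adaptor protein (−0.59, 95% interval −0.97 to −0.21), Pik3cd, a PI3 kinase subunit (−0.51, −0.84 to −0.18), Ptpn6, the phosphatase SHP-1 (−0.19, SE 0.08), and Grap2, an adaptor of the GRB2 family (−0.30, SE 0.14). Sh3bp2 and Pik3cd passed without knockout replicate 1 (−0.89 and −0.73, adjusted p = 0.00109 and 0.00529), and had −0.29 each without knockout replicate 2. Among ligands and partners, Pvr (CD155) measured 1.76 and 1.17 FPKM in knockout and 3.35 and 2.19 FPKM in WT, and Tnfrsf14 (HVEM) 2.18 and 3.06 FPKM against 4.26 and 3.27 FPKM. Neither passed (limma adjusted p = 0.264 and 0.445), nor did Ltb (0.12, SE 0.08) or Tnfsf14 (−0.07, SE 0.12).

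**Figure D5:**
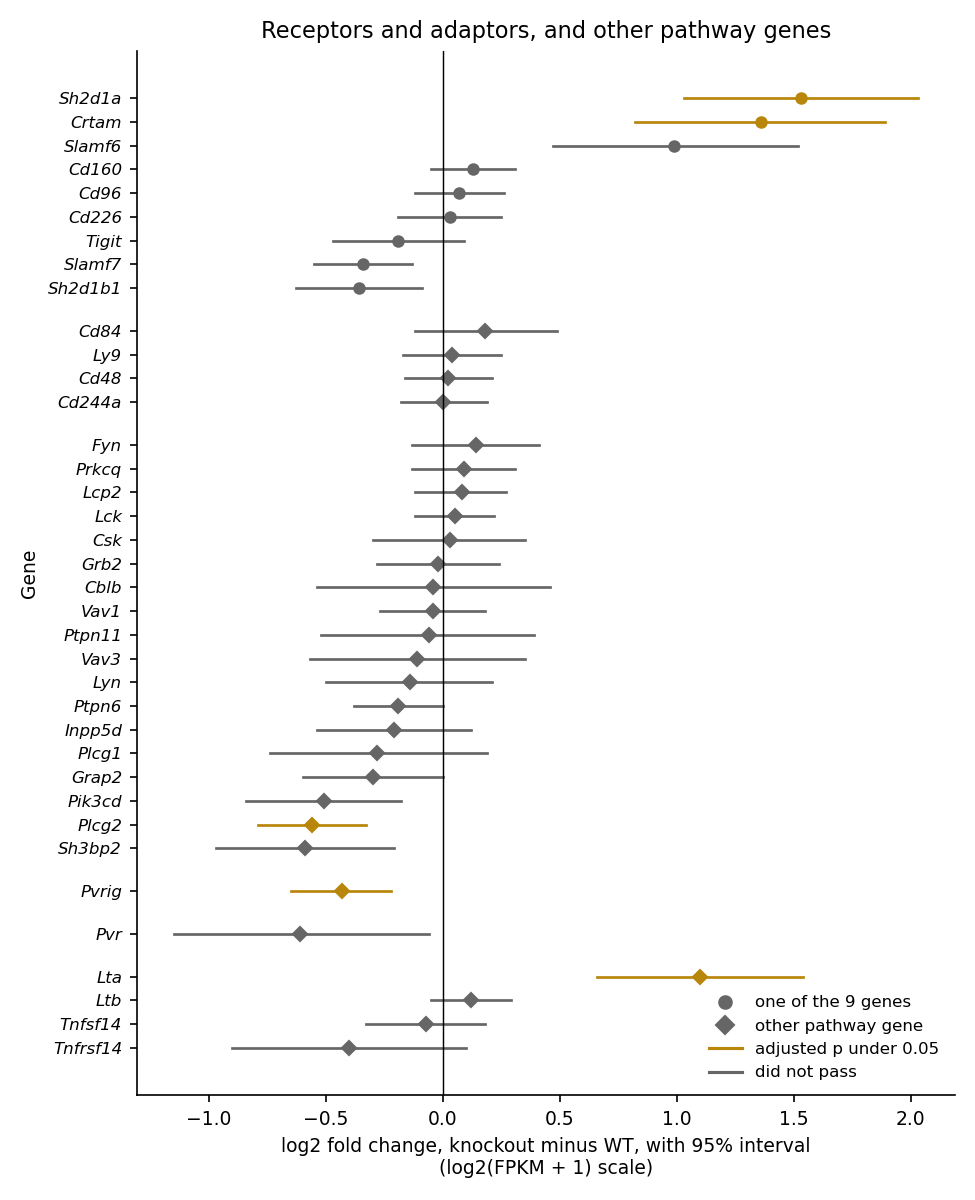
Log2 fold changes (knockout minus WT, from log2(FPKM + 1)) with 95% intervals for the 9 genes (circles) and 28 other tested pathway genes (diamonds), grouped by list. Gold marks the 5 genes past an adjusted p of 0.05: Sh2d1a, Crtam and Lta lie to the right of 0, and Plcg2 and Pvrig to the left.

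The profiles nearest to those of the 2 genes that rose were sought among 6091 other genes whose mean was 5 FPKM or more, by Euclidean distance of centred log2(FPKM + 1) over the 4 libraries. Nearest to Sh2d1a were Ccnb2, a mitotic cyclin (distance 0.13), Gramd2b (0.23) and Emb, encoding the membrane protein embigin (0.26). Ccnb2 measured 8.37 and 16.8 FPKM in knockout and 3.2 and 3.95 FPKM in WT, again with the higher knockout value in replicate 2. Nearest to Crtam were Rrm2, a ribonucleotide reductase subunit (0.18), the MHC class II gene H2-Ab1 (0.24) and the complement gene Cfb (0.25). Rrm2 measured 21.6 and 17.5 FPKM in knockout and 5.3 and 8.92 FPKM in WT. With 4 libraries in 2 groups, such a likeness is a description of these libraries.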

How the data were processed

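RNA-seq of 4 liver ILC1 libraries was analysed from the deposited table of FPKM values for 18804 genes. Per the labels' protocols, TRIzol RNA was amplified as full-length cDNA by a single-cell kit and made into libraries with a transposase kit. Per the submitters' processing notes, the tools included fastp, HISAT2, HTSeq, DESeq2 and R 3.2.0 with the build mm10; the notes state neither settings, annotation nor scaling between libraries. Coordinates are those of RefSeq for GRCm38.p6 (mm10), where 97.3% of the deposited identifiers were found.

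Depth was inferred from the step between low values of single-exon genes; 69.2% to 73.5% of such values then lay within 0.05 of a whole read. Between replicates, the variance of recovered reads was 18.3 to 19.0 times that of counting noise (chi-square per degree of freedom, over 252 to 259 single-exon genes). The replicates were kept as separate libraries. Groups were compared as log2(FPKM + 1) for 9476 genes whose mean was 1 FPKM or more, in R 4.3.3 by two-sided limma 3.58.1 (mean-variance trend, no covariate), and Benjamini-Hochberg adjustment over all of them. The procedure was run on simulated data with independent noise for each gene, a setting without the joint shifts of cell type markers in these libraries. Log2 fold changes are knockout minus WT and understate changes of low genes. Folds are ratios of mean FPKM, and intervals are limma's 95% confidence intervals. No batch is given in the labels.

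The members and lists were chosen with earlier results of these data known. Named genes are the 9 members, Cd200r1, pathway genes past the test, up to 4 per list with the smallest p, the 3 nearest profiles of members that passed, and the most abundant markers. Fyn, Plcg1, Cd4, Cd8b1, Cd5, Cd28, Itga1, Il7r, Aif1, Clec4f, Vsig4, Cd5l and genes below the filter were added after their values were seen. Alternatives covered 2 pseudocounts, 2 filters, no trend, 3 scalings and leaving out each library.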

Additional observations from a re-analysis of the deposited data

How the results depend on the processing

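The direction of 8 of the 9 genes, all but Cd226, was the same in every alternative run, with log2 fold changes from 1.16 to 1.90 for Sh2d1a, 0.81 to 1.70 for Crtam and 0.46 to 1.36 for Slamf6. Of 107 alternative values of the 9 genes, 102 kept their side of the threshold, 4 lost it and 1 gained it. Sh2d1a and Crtam each passed in 10 of 12 alternatives. When all genes above 0 were tested, limma called 0 genes in all, 0 of the 9 and 0 of the other pathway genes, although 1898, 5 and 8 had an unadjusted p under 0.05. The adjusted p of Sh2d1a was then 0.329 and that of Crtam 0.342. Without the mean-variance trend limma called 70 genes in all, 0 of the 9 (5 with an unadjusted p under 0.05) and 1 other pathway gene, and Sh2d1a and Crtam had adjusted p of 0.0715 and 0.0771. The cause was not tested. With each library left out, calls ranged from 256 to 574 genes in all (574 without knockout replicate 1, against 316), 2 to 3 of the 9, and 1 to 4 other pathway genes (1 without WT replicate 1 or WT replicate 3, against 3). A group then has 1 library, which is assumed to vary like the other group. No scaling moved the median log2 fold change of all genes past −0.0217. The stricter filter left Slamf6 untested. No paired analysis was possible because the groups share only replicate number 1.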

Other observations

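Genes of these families below the filter were not tested, and some separated by genotype, in both directions. Among tested genes 46% did not overlap, and no such share was taken for genes below the filter. Slamf1, a SLAM receptor of T cells and myeloid cells, measured 0.264 and 1.27 FPKM in knockout and 0.0354 and 0.25 FPKM in WT. Slamf8, a SLAM receptor of myeloid cells, measured 0.987 and 1.11 FPKM in knockout and 0.522 and 0.441 FPKM in WT. Sh2d1b2, the paralog of Sh2d1b1 that encodes the adaptor ERT, measured 0.67 and 1.4 FPKM in knockout and 0.0637 and 0.257 FPKM in WT. Each was higher in both knockout libraries, Slamf1 only narrowly (0.264 against 0.25 FPKM), and Slamf1 and Sh2d1b2 were highest in knockout replicate 2. The ligand gene Nectin4 was lower without overlap, at 0.0416 and 0 FPKM in knockout and 0.116 and 0.132 FPKM in WT. In the same libraries the summed FPKM of macrophage markers was 653.1 and 966.4 in knockout and 247.4 and 226.2 in WT. That of conventional NK markers was 276.4 and 590.2 in knockout and 93.7 and 89.3 in WT. The part of either cell type was not tested.

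The nectin-type ligands were scarce in these cells. Nectin2, Nectin3, Nectin4, Cadm1 (the ligand of CRTAM), Cadm3 and Cadm4 were each between 0 and 0.186 FPKM in every library, so Pvr was the only tested ligand. Btla, the other immunoglobulin-type receptor for HVEM, measured 0.888 and 1.36 FPKM in knockout and 0.72 and 0.938 FPKM in WT, with overlap.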
